A study of Mus musculus with 3 samples.

Results

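The genes described here are 10 heat shock proteins and co-chaperones, chosen by symbol as a group read in dissociated tissue for handling stress or cell state: Hspa1a, Hspa1b, Hspa8, Hspa5, Hsp90aa1, Hsp90ab1, Dnajb1, Hsph1, Hspd1 and Hspe1. They are 10 of the 31053 genes counted, and each has a row in all 3 sequencing runs. The series measured RNA in single cells from both hippocampi of mice with the genotype Cx3cr1CreERT2/+, Rosa26tdTomato/+, NestinTK-eGFP/+. Tamoxifen at 100 mg/kg on 4 days switched on tdTomato wherever the Cre recombinase of the Cx3cr1 locus was active, which covers microglia and also other macrophages and monocyte-derived cells, and tdTomato+ cells were then sorted. All runs form a single group from 12 animals, 6 male and 6 female, with the same genotype, reporter and treatment. The labels neither give ages nor assign animals to runs, so each comparison is between cells of the same runs (n = 3), and the spread between runs may be technical. The cells had passed PBS perfusion, homogenization, magnetic columns that removed myelin, and a flow cytometer.

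Heat shock proteins bind unfolded or unfinished proteins and help them fold. Heat, oxidation or other damage frees the transcription factor HSF1, which binds heat shock elements in front of inducible genes such as Hspa1a and Hspa1b, and their RNA can rise quickly while tissue is dissociated. Other members (Hspa8, Hsp90ab1) are made all the time, and Hspa5 answers to the unfolded protein response of the endoplasmic reticulum.

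The sequences before the gene starts show which of these controls can be read from the letters alone. Entries for 7 of the 10 members were matched in the RefSeq promoter table (build GRCm38.p6), and Hspa8, Hsp90aa1 and Hsp90ab1 were not matched. The 250 bases before each start were searched on both strands for paired half-sites of the heat shock element (GAANNTTC or TTCNNGAA, which can overlap each other), for the endoplasmic reticulum stress element (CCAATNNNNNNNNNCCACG) and for CCAAT alone, which that element contains. A match describes letters and does not show a bound site. Hspa1a (chr17:34972157-34972406, minus strand) and Hspa1b (chr17:34959239-34959488, minus strand) are printed because they are the most inducible pair, and capitals mark the paired half-sites.
Hspa1a: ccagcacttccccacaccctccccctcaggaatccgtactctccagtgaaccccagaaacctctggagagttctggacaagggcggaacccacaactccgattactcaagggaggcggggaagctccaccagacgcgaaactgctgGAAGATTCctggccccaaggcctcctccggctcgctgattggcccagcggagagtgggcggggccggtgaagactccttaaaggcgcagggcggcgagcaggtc
Hspa1b: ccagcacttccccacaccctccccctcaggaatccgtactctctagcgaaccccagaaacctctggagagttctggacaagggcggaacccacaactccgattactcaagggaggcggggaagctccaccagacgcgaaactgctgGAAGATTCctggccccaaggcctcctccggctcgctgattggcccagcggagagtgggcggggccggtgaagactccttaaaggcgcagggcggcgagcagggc
Both windows differ at 3 of 250 bases (98.8% identical), and each holds 1 paired half-site at 104 to 97 bases before the start. Paired half-sites of either kind occur in 12.8% of the 32851 promoter windows.

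Hspd1 and Hspe1, which encode the mitochondrial chaperonin and its lid, are printed because they lie head to head on chromosome 1. The RefSeq table has 2 Hspd1 starts. From the second, which lies 216 bases from the Hspe1 start, the genes are transcribed away from each other, and from the first they overlap. The window before the first start holds none of the motifs searched. The other windows (Hspe1, chr1:55087898-55088147, plus strand, and the second Hspd1 start, chr1:55087933-55088182, minus strand) share 215 of 250 bases. Capitals mark 4 half-sites in a row.
Hspe1: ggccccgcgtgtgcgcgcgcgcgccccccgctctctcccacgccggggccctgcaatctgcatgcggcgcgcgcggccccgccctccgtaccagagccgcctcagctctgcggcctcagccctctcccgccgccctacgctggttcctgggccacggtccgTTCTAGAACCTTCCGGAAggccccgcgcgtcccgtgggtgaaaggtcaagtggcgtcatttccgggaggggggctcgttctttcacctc
Hspd1: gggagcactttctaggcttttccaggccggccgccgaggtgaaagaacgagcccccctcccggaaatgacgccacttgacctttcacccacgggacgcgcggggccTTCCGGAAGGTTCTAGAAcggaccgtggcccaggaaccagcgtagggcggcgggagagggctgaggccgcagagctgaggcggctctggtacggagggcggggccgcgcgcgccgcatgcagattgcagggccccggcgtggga
The run of 4 half-sites, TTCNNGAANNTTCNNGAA, is 1 stretch of DNA read from both sides, and 4 of the 32851 windows hold it (0.0122%). Hspa5 (chr2:34771840-34772089, plus strand) is printed for the endoplasmic reticulum stress element in capitals, which 37 windows hold (0.113%). Its window has 4 CCAAT matches, among them the first bases of that element, and no paired heat shock half-site.
Hspa5: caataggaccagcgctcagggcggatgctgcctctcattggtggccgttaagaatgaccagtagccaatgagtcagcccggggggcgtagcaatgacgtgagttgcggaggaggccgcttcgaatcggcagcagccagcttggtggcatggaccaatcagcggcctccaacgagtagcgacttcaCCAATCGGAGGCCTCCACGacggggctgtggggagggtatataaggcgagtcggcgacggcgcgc
Hsph1 has 1 paired half-site and the windows of Dnajb1 have none.

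**Figure D1:**
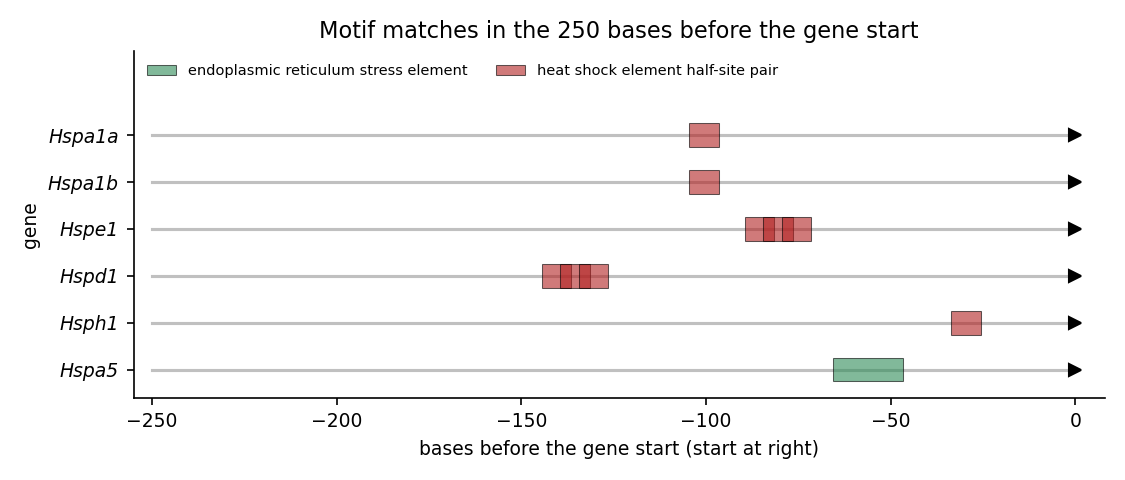
Motif matches in the 250 bases before the gene start of 6 members (x axis, bases before the start, which is the arrow at the right). Each red bar is a paired heat shock half-site and the green bar is the endoplasmic reticulum stress element. Hspe1 and Hspd1 each show 3 overlapping pairs, which are the same stretch of DNA read in opposite directions, and Hspa1a and Hspa1b show their pair at the same distance.

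Runs 1, 2 and 3 kept 6993, 6720 and 6078 cells (19791 in all) with a median of 4425, 3438 and 3696 UMIs, unique molecular identifiers that each stand for a captured RNA molecule. Pairs of runs shared 7 or 8 cell barcodes, at most 0.132% of the smaller run. Cells were grouped by marker genes. Reference microglia held at least 5 of 8 microglia markers (Tmem119, P2ry12 and others) and met no other gate. They numbered 6250, 6218 and 4440 cells, or 89.4%, 92.5% and 73.1% of the runs, and all 8 microglia markers were present in each run. Run 3 stood apart in several gates: 19.3% of its cells held at least 2 of 7 immediate early genes (Fos, Egr1, Dusp1 and others) and met no further gate, against 0.529% and 0.640% in runs 1 and 2. It held smaller shares in the lipid and disease-associated (0.609% against 1.62% and 1.37%), astrocyte (0.263% against 0.699% or more) and choroid plexus gates (0.115% against 0.543% and 0.417%). These shares leave out cells that met a further gate, and 22.4% of run 3 cells met the early gene gate. With such cells kept, the lipid share was 1.68% in run 3 against 2.45% and 1.95%, and the intervals of runs 2 and 3 overlapped. The astrocyte share was then 0.395% against 1.90% and 0.863%, and the choroid plexus share 0.132% against 0.729% and 0.491%.

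The constitutive members were abundant in reference microglia and close between runs, and the inducible pair was almost absent. Levels are UMIs per 1000000 UMIs of the population (CPM), not scaled by gene length, so the order below is one of captured molecules. Gene positions are those of GENCODE M21 on GRCm38. Hspa8 (chr9:40800984-40810087), the constitutive cytosolic HSP70, stood at 693, 689 and 609 CPM in runs 1, 2 and 3 (mean 664 ± 47.7, SD, n = 3), rank 194 of 18003 detected genes. Hspa5 (chr2:34771970-34777547), the HSP70 of the endoplasmic reticulum also called BiP, stood at 503, 638 and 687 CPM, and Hsp90ab1 (chr17:45567775-45573271), the constitutive HSP90, at 592, 551 and 594 CPM. Hspa5 overlapped the other two, and every value of Hspa8 lay above those of Hsp90ab1. Hspe1 (197, 179 and 185 CPM) and Hsp90aa1 (chr12:110690605-110702728), the HSP90 form that stress can raise, at 185, 188 and 159 CPM, also overlapped. Hspd1 followed without overlap at 82.0 ± 5.66 CPM (SD, n = 3), then Dnajb1 (chr8:83608193-83612653), an HSP40 that hands clients to HSP70, at 38.4 ± 2.28 CPM, and Hsph1 (chr5:149614287-149636376), an HSP110 that exchanges the nucleotide of HSP70, at 11.0 ± 2.12 CPM.

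Hspa1a and Hspa1b, the inducible HSP70 genes, stood at 0.478 ± 0.158 and 0.543 ± 0.464 CPM (SD, n = 3). Hspa1a had 0.417, 0.360 and 0.658 CPM in runs 1, 2 and 3, and Hspa1b had 0.521, 0.0899 and 1.02 CPM. Run 3 was high and run 2 low for both, and the 2 genes overlapped. Their starts are 12918 bases apart on chromosome 17, and their transcripts share no 50-base stretch in the last 500 bases, while 71.0% of such stretches in the rest of Hspa1a are also in Hspa1b. Reads from shared stretches cannot be assigned to 1 gene of the pair. For single cells the sum of both genes is used, which would still miss any such reads that were counted for neither.

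**Figure D2:**
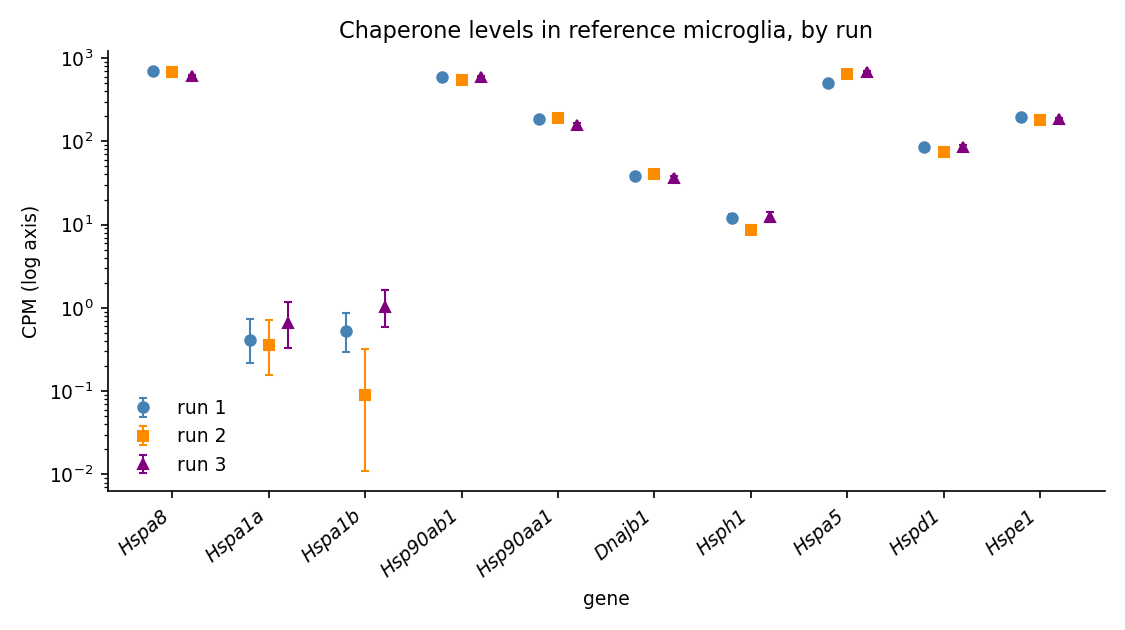
Level of the 10 members in reference microglia (y axis, CPM, logarithmic), 1 point per run, with exact 95% Poisson intervals that cover counting error only. Hspa8, Hspa5 and Hsp90ab1 lie between 503 and 693 CPM in every run, and Hspa1a and Hspa1b lie near or under 1.

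Over all cells that passed the filters, 113 UMIs of Hspa1a and Hspa1b were counted in 102 of 19791 cells (0.515%, exact 95% binomial interval 0.420 to 0.625%). The share was 0.543% (38 cells) in run 1, 0.223% (15 cells) in run 2 and 0.806% (49 cells) in run 3. The highest count in a cell was 3, 10 cells held at least 2 UMIs, and none held 5 or more. Of those 10 cells, 7 met the immediate early gene gate, which 1530 of the 19791 cells met, 4 the MHC class II gate, 4 the interferon gate and 3 the border macrophage gate, and 3 were reference microglia. No population here should lack chaperone RNA, so a background share from free RNA in the droplets could not be measured, and shares this low cannot be told apart from it.

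After each cell was thinned to 2000 UMIs, with 72, 353 and 127 shallower reference cells left out, Hspa8 was detected in 72.6%, 71.5% and 66.6% of reference microglia in runs 1, 2 and 3. Dnajb1 was detected in 7.51%, 8.12% and 7.56%, and Hspa1a in 0.113%, 0.0512% and 0.116%. Within the HSP70 family, the detected share thus ran from most cells (Hspa8) to almost none (Hspa1a) in each run.

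The reference microglia with at least 1 UMI of Hspa1a or Hspa1b (26, 10 and 26 cells in runs 1, 2 and 3) were compared with those that had none, a comparison added after the data had been seen because only 3 reference cells held 2. Run 2, with 10 cells, lay under the 20 cells per run that the other reported tests required. None of the 8 other members passed an adjusted p of 0.05 (edgeR's quasi-likelihood test on summed counts, adjusted by Benjamini-Hochberg over all genes), where 1 of 10793 genes was called (0.00927%), 446 genes had an unadjusted p under 0.05, and DESeq2 also called no member. Hsp90ab1 stood at 696, 1063 and 981 CPM in these cells against 592, 550 and 592 CPM, and Hspa8 at 849, 1092 and 918 against 693, 688 and 607 CPM. Hsph1 rested on 8 UMIs (17.0, 57.4 and 36.0 against 11.9, 8.51 and 12.3 CPM). Hsp90aa1 and Hspd1 were also higher without overlap, and Dnajb1, likewise from 8 UMIs, was lower without overlap (33.9, 28.7 and 27.0 against 38.9, 40.4 and 35.9 CPM). None of these differences passed: the fitted log2 difference of Hsp90ab1 was 0.44 ± 0.15 (SE, edgeR adjusted p = 0.989).

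Immediate early genes are switched on within minutes by many stimuli, including dissociation, and run 3 held most of the cells that expressed them. Early gene-gated microglia (37, 43 and 1175 cells) were compared with reference microglia, and 0 of 8 tested members passed, where 0.757% of 11224 genes were called by edgeR, 531 had an unadjusted p under 0.05, and DESeq2 called no member. Dnajb1 stood at 37.6, 29.1 and 39.5 CPM in gated cells against 38.9, 40.4 and 35.9 CPM, and Hspa8 at 695, 768 and 615 against 693, 689 and 609 CPM. Both overlapped, and the fitted changes of all 8 members lay between -0.11 and 0.16 (log2). None of 71 tested genes in lists of other chaperones passed either.

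Within run 3 alone, where the gate holds 1175 cells, the counts give the narrowest intervals, which cover counting error only and are no test across runs. Hspa1a and Hspa1b together had 8 UMIs (1.61 CPM) in early gene-gated and 28 UMIs (1.67 CPM) in reference microglia, a ratio of 0.963 (exact 95% interval 0.379 to 2.17). The ratio was 1.10 (0.932 to 1.30) for Dnajb1, 1.06 (1.02 to 1.10) for Hsp90ab1 and 1.06 (1.02 to 1.10) for Hspa5. Across runs, no member in reference microglia of run 3 was at least 1.5-fold above or below both other runs among those at 20 CPM or more, where 0.430% of 6275 such genes were above and 0.112% below. Hspa1a, Hspa1b and Hsph1 lie under that floor. Run 3 over runs 1 and 2 was 1.58 and 1.83 for Hspa1a, 1.95 and 11.3 for Hspa1b, and 1.05 and 1.46 for Hsph1. The run 3 values of Hspa1a and Hspa1b rest on 11 and 17 UMIs. When cells that also met other gates were kept, Hspa8 (0.34, edgeR adjusted p = 0.0299) and Hsp90ab1 (0.39, adjusted p = 0.00965) passed in the early gene gate, where 5.33% of 11531 genes were then called. In that setting Hspa1a stood at 8.40, 14.2 and 1.99 CPM in runs 1, 2 and 3, against 0.417, 0.360 and 0.658 CPM in reference microglia. Hspa1b stood at 1.68, 0 and 1.32 against 0.521, 0.0899 and 1.02 CPM. Values of this pair rest on few UMIs and are a description with no test.

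Microglia gated by lipid and disease-associated genes had higher levels of most members, cytosolic and organelle forms alike. This state, with at least 2 of Spp1, Lpl, Gpnmb, Itgax, Cst7, Lgals3 and Fabp5, is known from neurodegeneration, myelin loss and development, and 113, 92 and 37 cells met the gate and no other. Of 8 tested members, 6 were higher than in reference microglia, where 14.3% of 11105 genes were called and 7.23% were higher. The median log2 change of the 8 was 0.62, against -0.05 over all genes tested. Hspa1a had 2 UMIs and Hspa1b 1, too few to test.

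Both cytosolic HSP90 genes rose. Hsp90ab1 stood at 962, 1154 and 841 CPM in runs 1, 2 and 3 against 592, 551 and 594 CPM. Every gated value lay above every reference value, and the fitted rise was 0.83 ± 0.07 on the log2 scale (SE, 1.78-fold, edgeR adjusted p = 8.22e-32). Hsp90aa1 stood at 282, 361 and 206 CPM against 185, 188 and 159 CPM, without overlap (0.75 ± 0.09, edgeR adjusted p = 1.73e-13). The constitutive HSP70, Hspa8, stood at 1015, 1108 and 725 CPM against 693, 689 and 609 CPM, again without overlap (0.58 ± 0.07, edgeR adjusted p = 1.65e-15).

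The organelle members rose as well. Hspa5 stood at 687, 908 and 1309 CPM against 503, 638 and 687 CPM. Run 1 of the gated cells met run 3 of the reference, but Hspa5 was higher in each run (0.65 ± 0.07, edgeR adjusted p = 6.68e-19). Hspe1 stood at 326, 267 and 222 CPM against 197, 179 and 185 CPM (0.64 ± 0.09, edgeR adjusted p = 4.44e-10). Hspd1, its partner in the chaperonin, stood at 124, 106 and 136 CPM against 84.7, 75.5 and 85.7 CPM (0.60 ± 0.13, edgeR adjusted p = 7.41e-05). Neither gene of the pair overlapped between groups.

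The co-chaperones that HSF1 also drives did not pass. Dnajb1 stood at 35.7, 21.7 and 15.1 CPM against 38.9, 40.4 and 35.9 CPM, below the reference in each run (-0.43 ± 0.23, edgeR adjusted p = 0.250). Hsph1 stood at 6.62, 15.2 and 5.04 CPM against 12.0, 8.58 and 12.5 CPM and overlapped (edgeR adjusted p = 0.849).

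Of the other chaperones, 19 of 71 tested were higher and 2 lower in the lipid and disease-associated gate. Of all 11105 genes tested, 803 were higher and 790 lower. The endoplasmic reticulum list had 10 of 20 higher and 1 lower. Its leading gene was Sdf2l1, a partner of BiP and its HSP40 helpers, at 454 ± 58.9 against 211 ± 22.9 CPM (SD, n = 3, log2 change 1.10, edgeR adjusted p = 1.51e-36). The exception was Herpud1, which serves degradation of misfolded proteins (-0.33, edgeR adjusted p = 0.0172). The CCT chaperonin, which folds actin and tubulin, had 4 of 7 subunits higher, among them Cct3 (0.89, edgeR adjusted p = 7.19e-13). Of 21 cytosolic HSP70 and HSP90 partners 3 were higher, with Hspbp1, a nucleotide exchange factor, at 0.89 (edgeR adjusted p = 0.0165), and the glucocorticoid-responsive Fkbp5 was lower at -0.65 (edgeR adjusted p = 6.53e-05). Fkbp5 varied between runs in reference microglia, at 206, 42.0 and 94.8 CPM. None of 12 DNAJ co-chaperones passed.

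Depth and other markers moved with this gate, and their part in the result was not tested. The median UMI count was 5971, 4900 and 5249 in gated against 4360, 3405 and 3600.5 in reference cells, and mitochondrial UMIs were 3.60%, 3.09% and 4.25% against 2.57%, 2.07% and 2.57%. With cells thinned to 2000 UMIs, 5 of the 6 members still passed and Hspd1 did not (0.56, edgeR adjusted p = 0.427). The gates were read again from the thinned counts and shallower cells were left out, so the populations changed along with the depth. The 4 MHC class II genes summed to 165 to 206 CPM against 33.2 to 38.9 CPM, Ccl3 and Ccl4 to 51.6, 91.3 and 327 against 8.65, 13.5 and 27.9 CPM, and the 6 border macrophage markers to 11.9, 6.52 and 35.2 against 6.36, 3.28 and 4.31 CPM. The Emp3 and interferon lists were also higher in each run, and the microglia and oligodendrocyte lists lower. All 6 neutrophil and all 5 endothelial markers were at 0, and their sums in reference cells reached at most 0.104 and 0.899 CPM. Without the run as a block, 1 member (Hsp90ab1) passed, and the adjusted p of the other 5 lay between 0.0844 and 0.139.

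Microglia gated by the chemokines Ccl3 and Ccl4 (32, 35 and 47 cells), which are made early in microglial activation, had higher levels of both HSP90 genes, Hspd1 and Hspa5. Of 8 tested members, 4 were higher, where 3.48% of 10900 genes were called and 1.92% were higher. Hspd1 stood at 227, 123 and 132 CPM against 84.7, 75.5 and 85.7 CPM, with run 1 far above the others and no overlap (0.93 ± 0.20, edgeR adjusted p = 0.000374). Hsp90ab1 stood at 1137, 777 and 704 CPM, without overlap (0.55 ± 0.11, edgeR adjusted p = 5.79e-05). Hsp90aa1 stood at 341, 225 and 263 CPM, without overlap (0.63 ± 0.16, edgeR adjusted p = 0.00552), and Hspa5 at 598, 995 and 851 CPM, overlapping the reference (0.38 ± 0.11, edgeR adjusted p = 0.0206). The Hspa5 call was lost in 7 of 13 alternatives.

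Hspe1, the lid to Hspd1, stood at 257, 198 and 137 CPM in Ccl3/Ccl4-gated cells against 197, 179 and 185 CPM. The groups overlapped, and Hspe1 did not pass (0.03 ± 0.17, edgeR adjusted p = 0.979). No UMI of Hspa1a or Hspa1b was seen in these 3 sums, and none of 71 other chaperones passed. Most of these calls rest on run 1: without it, Hsp90ab1 had 0.33 (edgeR adjusted p = 0.280) and Hspd1 0.62 (adjusted p = 0.298), and 1 member was called. Without run 3, 2 members were called, and without the run as a block, none.

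The early gene and chemokine gates were then compared directly, since both can mark activation. Of 6 tested members, 2 were lower in early gene-gated cells, where 4.19% of 3271 genes were called and 2.84% were lower. Hspd1 stood at 65.7, 81.4 and 82.2 CPM in early gene-gated against 227, 123 and 132 CPM in Ccl3/Ccl4-gated cells, without overlap (-0.99 ± 0.24, edgeR adjusted p = 0.00287). Hsp90ab1 stood at 704, 541 and 631 against 1137, 777 and 704 CPM, lower in each run, with the groups meeting at 704 (-0.45 ± 0.12, edgeR adjusted p = 0.00561). Both calls were lost without run 1 (Hspd1 -0.65, edgeR adjusted p = 0.329, and Hsp90ab1 -0.27, adjusted p = 0.429), without run 2 (-1.09, adjusted p = 0.103, and -0.43, adjusted p = 0.293) and with DESeq2.

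**Figure D3:**
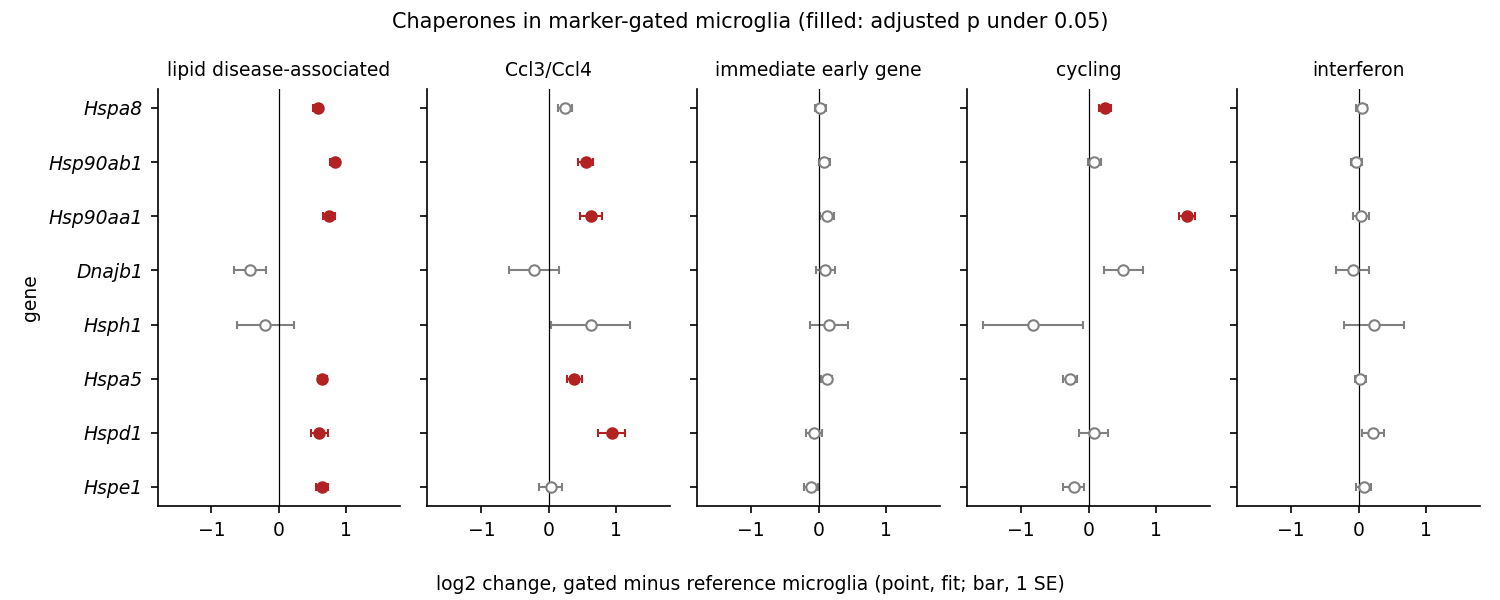
Fitted log2 change of 8 members in 5 marker gates against reference microglia (x axis), with 1 SE as bars. Filled red points passed an adjusted p of 0.05 and open grey points did not. In all, 6 filled points stand in the lipid and disease-associated panel, 4 in the Ccl3/Ccl4 panel, 2 in the cycling panel and 0 in the early gene and interferon panels, and the widest shift is that of Hsp90aa1 in cycling cells (1.46).

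Cycling microglia had a 2.75-fold higher level of the inducible HSP90 gene, Hsp90aa1. In cells with at least 2 of 11 division genes (Top2a, Mki67 and others, 53, 24 and 21 cells), 2 of 8 tested members were higher, where 12.1% of 11058 genes were called and 6.76% were higher. Hsp90aa1 stood at 568, 558 and 488 CPM against 185, 188 and 159 CPM, with close values in all runs (1.46 ± 0.11, edgeR adjusted p = 5.24e-36). Hsp90ab1 stood at 734, 652 and 619 CPM against 592, 551 and 594 CPM. Its groups did not overlap either, but it did not pass (0.09 ± 0.10, edgeR adjusted p = 0.673).

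Hspa8 in cycling cells stood at 1009, 841 and 698 CPM against 693, 689 and 609 CPM (0.25 ± 0.09, edgeR adjusted p = 0.0437), and this call was lost in 9 of 13 alternatives, among them without run 1 (0.06, adjusted p = 0.897), without run 2 (0.29, adjusted p = 0.0616) and after thinning (0.18, adjusted p = 0.703). Hspa5 went the other way, at 486, 506 and 654 CPM against 503, 638 and 687 CPM, and did not pass (-0.27 ± 0.10, edgeR adjusted p = 0.0530). It passed in 5 of the 13 alternatives, at -0.71 (adjusted p = 0.0246) with cells thinned to 2000 UMIs. Of all 11058 genes tested, 747 were higher and 587 lower. Of the other chaperones, 2 of 72 were higher, a smaller share, and 4 lower, a similar share. The higher ones were HSP90 partners: Stip1, which bridges HSP70 and HSP90, at 63.1 ± 4.38 against 30.2 ± 1.92 CPM (SD, n = 3, 0.95, edgeR adjusted p = 0.0143), and Ptges3, the p23 co-chaperone (0.69, edgeR adjusted p = 0.000477). All 4 lower ones belonged to the endoplasmic reticulum list, led by Herpud1 (-0.73, edgeR adjusted p = 9.45e-05), Dnajb9 (-0.68, edgeR adjusted p = 0.00967) and Xbp1, the transcription factor that drives many genes of that list (-0.57, edgeR adjusted p = 0.00300).

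**Figure D4:**
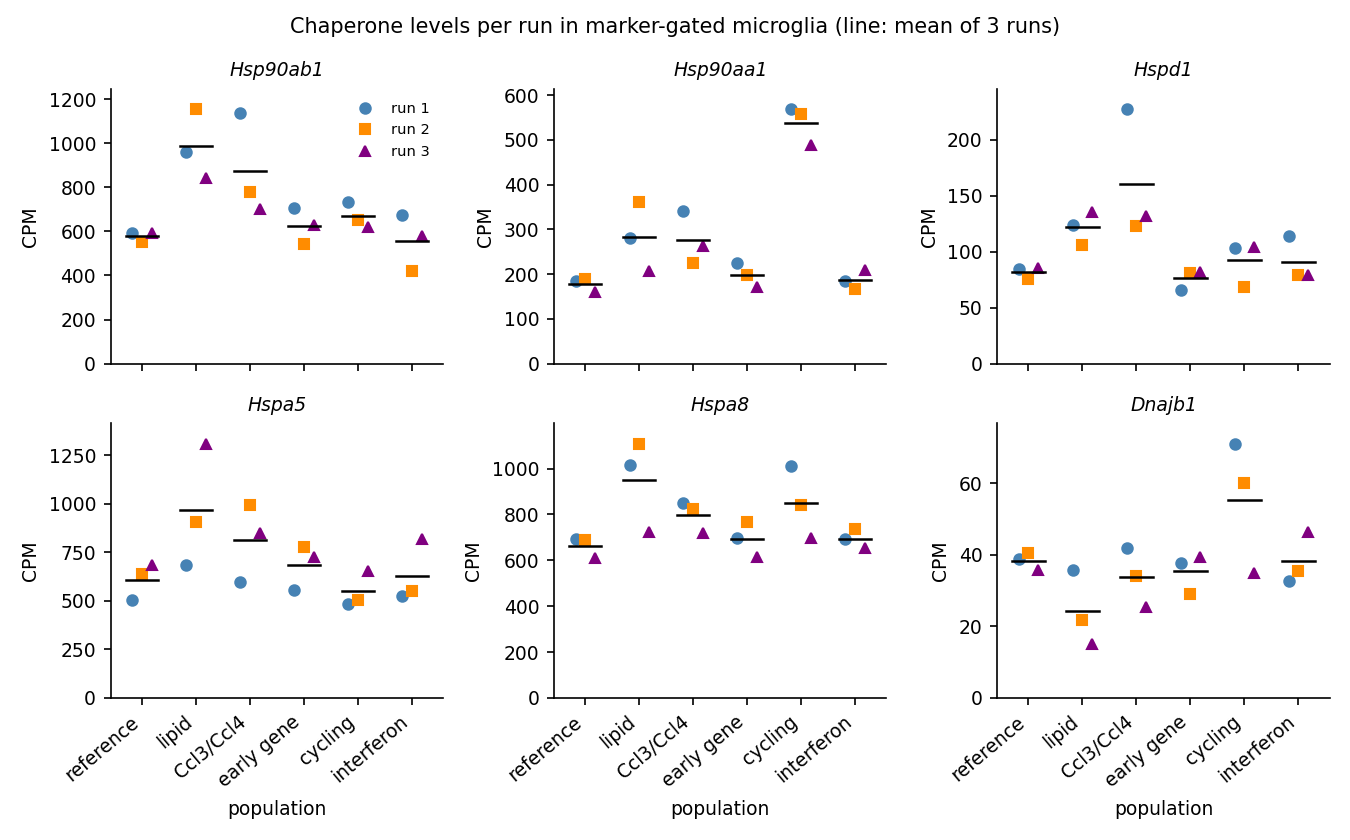
Level of 6 members (y axis, CPM, from 0) in reference and marker-gated microglia, with 1 point per run and a line at the mean of 3 runs. Hsp90aa1 in cycling cells lies between 488 and 568 in all runs, and Hspd1 in Ccl3/Ccl4-gated cells is drawn up by run 1 at 227. Dnajb1 in lipid and disease-associated cells lies below the reference in each run, from few UMIs in run 3, and did not pass.

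Interferon-gated microglia (96, 64 and 49 cells with at least 3 of 10 interferon-induced genes) had no member past the threshold. Of 8 tested, 0 passed, where 1.63% of 11025 genes were called by edgeR, 878 had an unadjusted p under 0.05, and DESeq2 called no member. Hsp90ab1 stood at 673, 422 and 580 CPM against 592, 551 and 594 CPM and overlapped (-0.03 ± 0.08, edgeR adjusted p = 0.980). When all cells of the gate were kept, among them 75 that also met the MHC class II gate and 66 that met the border macrophage gate, 5 of 8 members passed apart from Hspa1a and Hspa1b, where 15.9% of 11384 genes were then called, and Hsp90ab1 turned to 0.40 (edgeR adjusted p = 3.21e-07).

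Cells gated by MHC class II genes, by border macrophage genes, by Emp3, Fxyd5 and Tnfsf13b, or by astrocyte transcripts were too few when other gates were barred, so all cells of these gates were tested. Of 8 tested members apart from Hspa1a, 3 were higher in the 71, 46 and 64 MHC class II-gated cells (19.4% of 11280 genes called, 11.3% higher). Hsp90ab1 stood at 811, 955 and 1136 CPM (0.98 ± 0.22, edgeR adjusted p = 0.000115), Hspa8 at 900, 1046 and 1345 CPM (0.96 ± 0.23, edgeR adjusted p = 0.000256) and Hspe1 at 290, 253 and 345 CPM (0.91 ± 0.19, edgeR adjusted p = 1.98e-05). All lay above the reference without overlap. Hspa1a had 9 UMIs, at 7.53, 15.8 and 2.02 CPM against 0.417, 0.360 and 0.658 CPM. It passed the filter on low counts only through the gated cells, where it is high, so these values are a description with no test.

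In the 60, 39 and 49 Emp3-gated cells, 5 of 8 tested members apart from Hspa1a were higher (18.2% of 11255 genes called, 10.5% higher). Hsp90ab1 stood at 1007, 847 and 1134 CPM (0.97 ± 0.20, edgeR adjusted p = 8.65e-05), and Hspe1 at 331, 278 and 335 CPM (0.95 ± 0.17, edgeR adjusted p = 1e-05). Hspa8 (0.89), Hsp90aa1 (0.63) and Hspd1 (0.58) were the other members called, and the Hspd1 call was lost in 7 of 11 alternatives. Hspa1a, again admitted by the gated cells alone and given with no test, had 7 UMIs and stood at 2.47 CPM or more in each run. Both gates shared 55 cells, which is 30.4% of the MHC class II-gated and 37.2% of the Emp3-gated cells, so they are not independent. In cells of 1 gate only, at most 15 MHC class II-gated and 29 Emp3-gated cells per run, 0 members passed in either, where 0.863% of 10771 and 0.481% of 10806 genes were called, and Hspa8 stood at -0.056 and -0.24 (edgeR adjusted p = 0.961 and 0.877). Without run 2, 1 member was called in the MHC class II gate and 3 in the Emp3 gate.

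Other chaperones were called in both directions in these 2 gates, each time at a smaller share than among all genes. Among the MHC class II-gated cells 4 of 72 were higher and 4 lower, against 1272 and 916 of all 11280 genes. Among the Emp3-gated cells 6 were higher and 3 lower, against 1180 and 863 of all 11255 genes. Both gates were set against the same reference cells. Cct5, a CCT subunit, had a log2 change of 0.77 in the first and 0.96 in the second (edgeR adjusted p = 0.000489 and 1.72e-05). Dnajb4, an HSP40, was lower in both (-1.30 and -1.27, edgeR adjusted p = 0.000698 and 0.00200), at 14.2 ± 9.01 and 15.2 ± 6.71 against 44.9 ± 2.01 CPM (SD, n = 3). In run 1, 15.5% of MHC class II-gated and 13.3% of Emp3-gated cells held Xist and Y-linked RNA together, against 2.72% of reference cells. Without such cells, 3 and 5 members apart from Hspa1a were called.

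In border macrophage-gated cells (78, 27 and 48) 0 of 8 members passed, where edgeR called 10.7% of 11185 genes, 2222 had an unadjusted p under 0.05, and DESeq2 called no member. Hspa8 stood at 805, 942 and 909 CPM, above the reference without overlap (0.49 ± 0.21, edgeR adjusted p = 0.127). In run 1, 33.3% of these cells held both Xist and Y-linked RNA. Without such cells, Hspa8 (0.57, edgeR adjusted p = 0.00212) and Hsp90ab1 (0.47, adjusted p = 0.0214) passed, and without run 1 the same 2 genes did (0.62, adjusted p = 0.000470, and 0.47, adjusted p = 0.0197). Of all genes, 14.8% were called in the former setting and 12.0% in the latter. Hspa1a, too low to test, had 6.16, 0 and 17.3 CPM. In astrocyte transcript-gated cells (133, 58 and 24) 0 of 8 passed (1.43% of 11049 genes called by edgeR, 0 members by DESeq2). The small heat shock protein Cryab, abundant in glia, was higher there at 27.8 ± 11.4 against 2.26 ± 1.07 CPM (SD, n = 3, 3.44, edgeR adjusted p = 1.01e-06).

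The last comparison used the 2 sexes in the series, read from each cell. Reference microglia with at least 2 Xist UMIs and no Y-linked UMI (2435, 3266 and 1892 cells) were compared with those holding at least 1 UMI of 4 Y-linked genes and no Xist (2142, 1249 and 1178 cells). All 8 tested members were lower in Xist-marked cells in each of the 3 runs, and 3 passed, where 0.379% of 11088 genes were called and 0.171% were lower. The median log2 difference of the 8 was -0.23, against -0.0015 over all genes tested. How many of all genes were lower in each run, or did not overlap, was not counted. How many animals stand behind each sex in a run is not known, so the runs, not animals, are the replicates.

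Hspa8 stood at 568, 606 and 528 CPM in Xist-marked against 795, 817 and 669 CPM in Y-marked microglia. No value overlapped, and Hspa8 fell by 0.42 ± 0.04 on the log2 scale (SE, edgeR adjusted p = 1.54e-06). Hsp90ab1 stood at 542, 496 and 513 against 640, 619 and 653 CPM, also without overlap (-0.30 ± 0.04, edgeR adjusted p = 0.000329). Hspa5 stood at 453, 633 and 603 against 544, 657 and 741 CPM. It overlapped across runs (-0.21 ± 0.05, edgeR adjusted p = 0.0389), and the call was lost without run 1 (adjusted p = 0.210), without run 3 (adjusted p = 0.337) and with DESeq2 (adjusted p = 0.153).

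Hsp90aa1 stood at 175, 182 and 139 against 190, 210 and 175 CPM, lower in each run. It did not pass (-0.21 ± 0.05, edgeR adjusted p = 0.0617), but did without run 1 (-0.28, adjusted p = 0.0164). The inducible co-chaperones were lower in each run and did not pass. Hsph1 stood at 10.1, 6.79 and 9.06 against 14.2, 10.8 and 14.0 CPM, without overlap (-0.57 ± 0.13, edgeR adjusted p = 0.0650). Dnajb1 stood at 33.3, 37.8 and 34.6 against 43.9, 41.1 and 38.2 CPM, without overlap (-0.25 ± 0.07, edgeR adjusted p = 0.211). Hspa1a had 5 UMIs in Xist-marked and 14 in Y-marked cells and Hspa1b 8 and 11, too few to test. Hspd1 and Hspe1 had fitted differences of -0.16 and -0.10 (edgeR adjusted p = 0.314 and 0.483).

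Of 71 other chaperones, 0 were higher and 3 lower in Xist-marked microglia, and all 3 work with HSP70 or HSP90. Of all 11088 genes tested, 23 were higher and 19 lower. Dnaja1, an HSP40 partner of Hspa8, stood at 158 ± 18.8 against 208 ± 28.3 CPM (SD, n = 3, -0.40, edgeR adjusted p = 1.03e-05). Fkbp5 had -0.44 (edgeR adjusted p = 0.000450) and Ptges3 -0.25 (edgeR adjusted p = 0.0484). The median UMI count was 4422, 3431 and 3584 in Xist-marked and 4424, 3488 and 3782 in Y-marked cells, and the summed early gene markers were 19.3, 38.7 and 160 against 24.4, 36.0 and 173 CPM. Of the marker lists, 3 moved the same way in each run: the astrocyte list was lower in Xist-marked cells (333, 209 and 231 against 390, 273 and 255 CPM), and MHC class II genes (36.2, 38.6 and 44.0 against 27.6, 32.5 and 34.1 CPM) and Ccl3 and Ccl4 (10.1, 14.9 and 28.6 against 5.36, 10.1 and 27.2 CPM) were higher. Their part in the result was not tested. Without the run as a block, no member passed. In the lipid and disease-associated gate, Y-marked cells made up 37.8%, 19.1% and 34.8% of sex-marked cells, against 46.8%, 27.7% and 38.4% in reference microglia.

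**Figure D5:**
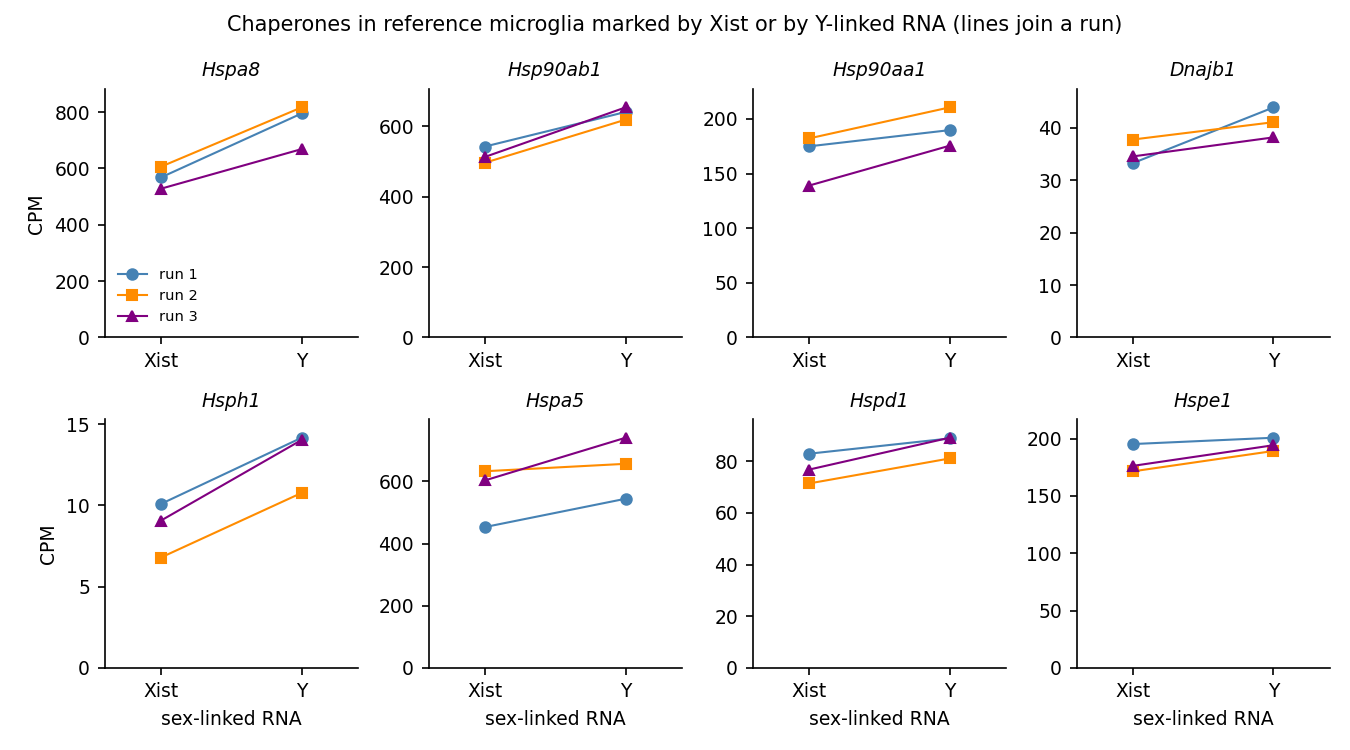
Level of 8 members (y axis, CPM, from 0) in reference microglia marked by Xist or by Y-linked RNA, with a line joining both values of a run. Every line rises from Xist to Y, and the groups do not overlap for Hspa8, Hsp90ab1, Dnajb1 and Hsph1. The share of all genes without overlap was not counted.

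Across 18 sums (6 populations by 3 runs) the members did not move as a block. Pearson's r of log2(CPM + 1) was 0.71 between Hsp90ab1 and Hspd1, 0.65 between Hsp90ab1 and Hspa8, and -0.76 between Dnajb1 and Hspa5. Hspd1 and Hspe1, the head-to-head pair, had 0.31. The genes most like the mean of the 4 inducible members (Hspa1a, Hspa1b, Dnajb1 and Hsph1) among 6398 were Phf21a, Tbl1x, Mdm4, Vcpip1 and AI987944, with r between 0.82 and 0.85. Those 4 members did not follow each other closely, with r between -0.22 (Hspa1a and Hsph1) and 0.45 (Hspa1b and Dnajb1). Several sums held no UMI of Hspa1a or Hspa1b, so the mean rests partly on very low counts. The sums share libraries and depth, and small populations weigh on them as much as large ones, so these values are descriptions.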

How the data were processed

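The authors deposited raw counts, 1 count per UMI, of 31053 genes by cell barcode for each of 3 runs. Per the submitters' processing notes, Cell Ranger, Seurat 4.0 and build mm10 were used, and the software version is 3.0.2 in run 1 and 3.1.0 in the later runs, per the file headers. Barcodes of run 1 and of the later runs may thus differ in how they were selected. How doublets were treated is not given in the sources used here, and no doublet caller was run. Cells holding Xist and Y-linked RNA together served as a partial check.

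A cell was kept when it held 1000 UMIs and 500 genes or more and no more than 10% of mitochondrial UMIs. The members, the gate markers and the chaperone lists, written from general knowledge, were chosen with earlier results of these data known. The number of markers per gate was set after seeing how many cells met each gate, not from the members. A cell entered a population if it met that gate and no other but microglia. For 4 gates with fewer than 20 such cells in a run, all cells of the gate were used. The markers Clec7a and the chaperone Cct6a were not analysed here.

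For each run, UMI counts were added up over the cells of a population, and the sums were tested with edgeR 4.0.16 (R 4.3.3, glmQLFit and glmQLFTest, TMM, filterByExpr, run as a block, Benjamini-Hochberg adjustment over all genes tested, threshold 0.05), without each gate's own markers. Both sums of a run come from 1 library, and how they departed from their population's mean correlated at 0.401 to 0.901 in 4 comparisons checked. For most fits the prior degrees of freedom were infinite, so genes shared a single estimate of spread, and with 3 runs small p-values rest on that sharing. The test was checked on simulated data with a single fixed spread and no differences between runs. That check does not cover fits with a larger spread, such as the border macrophage, MHC class II and Emp3 gates (common dispersion 0.0278, 0.0260 and 0.0222). Besides all members, at most 3 chaperones per direction and comparison were named, those with the largest change at an adjusted p under 0.05, at least 20 CPM and 1 direction in all runs. Herpud1 in the lipid and disease-associated gate and the lower chaperones by sex fall under the same rule. CPM came from the same deposited counts, with intervals at 95% for counting error only. Alternatives included DESeq2 1.42.0, RLE size factors, no filter, other cell filters, thinning, leaving out each run and a fit of all populations together. For tests after thinning, cells were gated again on the thinned counts. Gene IDs were matched to GENCODE M21 (GRCm38) for 99.6% of genes.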

Additional observations from a re-analysis of the deposited data

Results flagged for a closer look

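Members differed between the gates for immediate early genes and for Ccl3/Ccl4 in the direct test of both populations. Hspd1 had a log2 difference of -0.99 and Hsp90ab1 of -0.45 (early gene-gated minus Ccl3/Ccl4-gated microglia), lower in 3 of 3 runs each. The Hspd1 call was lost in 5 of 11 alternatives and the Hsp90ab1 call in 6 of 12, both among them without run 1. No group had 4 or more samples, so single samples far from the others were not searched for.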

How the results depend on the processing

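Counts of called members were compared over the alternatives: 116 kept within 1.5 times the reported count and 29 did not, and the cause was not tested. Without the replicate block, the counts were 1 for lipid and disease-associated (reported 6), 1 for cycling (2), and 0 for Ccl3/Ccl4 (4), early gene against Ccl3/Ccl4 (2) and sex-marked microglia (3). With DESeq2 they were 1 for cycling and 0 for early gene against Ccl3/Ccl4. Without a filter on low counts, 5 members were called by sex and, apart from Hspa1a, 0 in border macrophage-gated cells. Thinning left 2 in the Ccl3/Ccl4 gate, 2 in the MHC class II gate and 0 between early gene and Ccl3/Ccl4, where the stricter cell filter also left 0. Requiring 1 more UMI left 1 in the Ccl3/Ccl4 gate. Without cells holding Xist and Y-linked RNA together, 2 were called in border macrophage-gated cells. Keeping all cells of the gate gave 5 for interferon and 2 for early genes apart from Hspa1a, and Hsp90ab1 under interferon turned to 0.40. In cells of 1 gate only, 0 were called for MHC class II and 0 for Emp3, with Hspa8 at -0.056 and Hspe1 at -0.024 for MHC class II, and Hspa8 at -0.24 and Hsp90ab1 at -0.0024 for Emp3.

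Leaving out 1 run gave 1 to 2 for cycling, 1 to 3 for Ccl3/Ccl4 and 0 to 2 for early gene against Ccl3/Ccl4. Apart from Hspa1a, it gave 0 to 2 for border macrophages, 1 to 3 for MHC class II and 3 to 4 for Emp3. The lipid and disease-associated count stayed at 6 in each. Hspa1a, described above without a test, is left out of these counts per gate. The tally of counts within 1.5 times the reported one, and the single values below, still include it. Of single members, 1044 values kept their side of the threshold, 71 lost a call and 26 gained one. A further 5 turned direction with a call in at least 1 of the settings compared. Values that turned without a call in either setting are counted among the 1044. Over all cells instead of reference microglia, Hspa1a had 0.782 CPM and Hsp90ab1 608 CPM. Requiring 1 more marker was not run for the early gene, Emp3 and astrocyte gates, nor thinning for Emp3, since fewer than 5 cells were left in a run, and the planned comparison of cells with 2 UMIs of Hspa1a and Hspa1b was not run for the same reason. Counts under about 10 UMIs per population limit what can be said of Hspa1a, Hspa1b and Hsph1.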

Other observations

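Cells gated by Ttr and other choroid plexus transcripts (38, 28 and 7 cells in runs 1, 2 and 3) were too few in run 3 to test. Hsp90aa1 stood there at 365, 621 and 152 CPM, against 185, 188 and 159 CPM in reference microglia, and the value of run 3 rests on 3 UMIs. Hspa8 stood at 681, 1185 and 965 CPM and Hsph1 at 24.8, 37.6 and 50.8 CPM, the latter from 4, 4 and 1 UMIs. T and NK markers gated 2 cells in run 2 and 3 in run 3 once other gates were barred, and these are not described further.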
